A study of Mus musculus with 7 samples.

Results

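The genes described here are the ligands Tgfb1, Tgfb2 and Tgfb3, the receptors Tgfbr1, Tgfbr2 and Tgfbr3, the signal carriers Smad2 and Smad3, and Tgfbi, a gene named for its response to TGF-beta. They were chosen by name, and each of the 9 stands on a single line of the deposited table of 22564 genes. RNA was sequenced from liver of C57bl/6 mice given parathyroid hormone (PTH, 4 libraries) or phosphate-buffered saline (PBS, 3 libraries). PTH is a peptide hormone whose receptor raises cyclic AMP, and the series concerns liver fibrosis. The sample titles call the groups C+P and C, and no source used here explains C, so it cannot be told whether every mouse carried a further treatment or whether the PBS livers were healthy. Age, sex, dose and duration are not given either, and the labels leave unsaid whether the libraries came from different animals. The p-values then set the difference between the groups against the scatter between these libraries, which may be only technical.

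TGF-beta is secreted in a latent form that is held in the matrix until it is released. The active ligand binds the type II receptor, encoded by Tgfbr2, which phosphorylates the type I receptor, encoded by Tgfbr1, and this kinase in turn phosphorylates SMAD2 and SMAD3. These join SMAD4, enter the nucleus and act on target genes. Tgfbr3 encodes betaglycan, a co-receptor that presents ligand, above all TGF-beta 2, to the signalling receptors. In the liver the pathway is known for driving hepatic stellate cells to become matrix-producing myofibroblasts, and for restraining hepatocyte growth.

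Of the 9 genes, the receptors Tgfbr1 and Tgfbr2 and the carriers Smad2 and Smad3 rose in PTH livers, by 1.25 to 1.71 on the log2 scale, and 0 fell, also at an unadjusted p under 0.05. The 3 ligands, the co-receptor Tgfbr3 and Tgfbi did not pass the test. The background is high: of 11861 tested genes, 22.8% rose and 2.37% fell by the same rule, and the tested genes as a whole had a median change of 0.55. Genes are said to rise or fall where limma, fitted to log2(FPKM + 0.5) over all tested genes with Benjamini-Hochberg adjustment, gave an adjusted p under 0.05. When every library was set to the same median, 0 of the 9 genes rose and 0 fell by limma, against 3.25% and 5.25% of all tested genes. At an unadjusted p under 0.05, 2 were higher there, Tgfbr1 and Smad2, and 1 was lower, Tgfbi. No share of all tested genes at an unadjusted p is given, here or below, so such counts cannot be set against the background. Since 0 of the 9 genes rose at a common median, the rises are stated for the values as deposited. FPKM is fragments per kilobase of transcript, scaled to the size of the library, which is meant to allow levels of different genes to be compared. The table also holds scaled counts, which are not per length, and dividing these by the step of each library gave estimated reads, 1621725 to 3281522 in all in PTH libraries and 1200685 to 2556687 in PBS libraries. The liver label was checked with albumin, the main product of hepatocytes, which was abundant throughout, with 12239 to 23447 FPKM of Alb in PTH libraries and 5944 to 17682 FPKM in PBS libraries.

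Promoter sequences from RefSeq (GRCm38.p6) were used for 6 of the 9 genes. Those of Tgfbr1, Tgfbr2 and Smad3 are printed as genes that rose, and that of Tgfb2 beside them as a ligand that did not pass and the only one of the 6 with the core of a cyclic AMP response element. Each runs 5′ to 3′ on the gene's strand from 250 bases before the start site to 50 bases from it on. Capitals mark the letters GGGCGG of a GC box, TATAAA of a TATA box or TGACG, the core of a cyclic AMP response element, on either strand. Tgfbr1 is at chr4:47352972-47353271 (+), Tgfbr2 at chr9:116175314-116175613 (-), Smad3 at chr9:63757945-63758244 (-) and Tgfb2 at chr1:186705940-186706239 (-).
Tgfbr1: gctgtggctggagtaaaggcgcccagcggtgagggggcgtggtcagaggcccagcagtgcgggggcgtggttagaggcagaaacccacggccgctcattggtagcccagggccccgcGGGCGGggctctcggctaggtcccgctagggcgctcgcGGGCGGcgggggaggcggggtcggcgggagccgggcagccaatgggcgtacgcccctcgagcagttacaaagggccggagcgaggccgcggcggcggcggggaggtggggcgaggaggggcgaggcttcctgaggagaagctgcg
Tgfbr2: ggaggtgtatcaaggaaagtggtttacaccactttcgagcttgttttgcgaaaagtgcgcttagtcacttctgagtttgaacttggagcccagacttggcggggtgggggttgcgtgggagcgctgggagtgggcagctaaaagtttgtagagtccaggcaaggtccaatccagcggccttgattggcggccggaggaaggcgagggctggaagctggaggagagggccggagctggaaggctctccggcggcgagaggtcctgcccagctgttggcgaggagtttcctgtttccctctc
Smad3: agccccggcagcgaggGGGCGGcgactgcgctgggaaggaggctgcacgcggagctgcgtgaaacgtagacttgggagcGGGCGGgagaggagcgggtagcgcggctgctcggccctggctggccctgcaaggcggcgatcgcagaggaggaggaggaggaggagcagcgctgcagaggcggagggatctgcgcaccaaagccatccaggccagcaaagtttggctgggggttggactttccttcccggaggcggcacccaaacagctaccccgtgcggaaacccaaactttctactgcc
Tgfb2: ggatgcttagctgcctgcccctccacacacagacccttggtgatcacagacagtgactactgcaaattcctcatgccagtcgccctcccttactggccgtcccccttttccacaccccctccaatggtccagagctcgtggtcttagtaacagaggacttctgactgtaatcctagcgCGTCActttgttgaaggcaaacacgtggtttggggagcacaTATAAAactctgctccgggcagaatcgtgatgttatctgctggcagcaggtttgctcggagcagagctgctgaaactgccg

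Tgfbr1 and Smad3 each held 2 GC boxes in this window, with a G+C content of 74.7% and 67.7%, and neither held a TATA box. RefSeq lists another start of Tgfbr1, whose window at chr4:47385966-47386265 (+) held 0 of the motifs and had a G+C content of 52%. Tgfbr2 held none of the motifs and had a G+C content of 59%. Tgfb2 had a TATA box starting at position -31, and the reverse letters CGTCA of the response element core at position -72. The core TGACG was in 20.8% of 32841 promoters of the same length and the full element TGACGTCA, which contains that core, in 1.79%. The full element was in 0 of the 6 genes' windows searched (Tgfb1, Tgfb2, Tgfbr1, Tgfbr2, Smad3 and Tgfbi), as was GTCTAGAC, a palindromic SMAD-binding sequence found in 0.213% of promoters. GC boxes were in 35.7% and TATA boxes in 13.6% of all promoters. Tgfb1 held 6 GC boxes with a G+C content of 77%, and Tgfbi held 2. A match or its lack describes these letters only and says nothing of a factor's binding.

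Tgfb1, the most abundant ligand of the family here, lies on chromosome 7 from 25687002 to 25705077 (GRCm38, GENCODE M21, plus strand). Its level was 4.08, 7.37, 6.93 and 5.72 FPKM in PTH 1 to 4, against 3.51, 3.27 and 3.60 FPKM in PBS 1 to 3. All PTH libraries lay above all PBS libraries, PTH 1 by the smallest margin. The log2 change was 0.69 (SE 0.30, 95% interval 0.042 to 1.34, limma adjusted p = 0.103), so Tgfb1 did not pass. Its exact two-sided permutation p was 0.0571, the smallest that 3 against 4 libraries can give. Only 25 to 62 estimated reads in PTH libraries and 17 to 30 in PBS libraries stand behind these values.

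Tgfb2 lies on chromosome 1 from 186622792 to 186705989 (minus strand) and encodes the ligand that depends most on betaglycan. Its level was 0.614, 0.545, 0.543 and 1.01 FPKM in PTH 1 to 4, against 0.155, 0.329 and 0.265 FPKM in PBS 1 to 3. The groups did not overlap, and PTH 4 stood above the other PTH libraries. The log2 change was 0.64 (SE 0.34, limma adjusted p = 0.172, exact permutation p = 0.0571). Tgfb3, on chromosome 12 from 86056745 to 86079041 (minus strand), had 0.807, 0.713, 0.419 and 0.665 FPKM in PTH 1 to 4, against 0.439, 0.186 and 0.250 FPKM in PBS 1 to 3. Here PTH 3 lay below PBS 1, so the groups overlapped. It changed by 0.54 on the log2 scale (SE 0.34, limma adjusted p = 0.243, exact permutation p = 0.114). In the table the locus of Tgfb3 is shared with Ttll5, a gene on the other strand, so reads could be split between the pair. Tgfb2 rested on 11 to 15 estimated reads in PTH libraries and 3 to 5 in PBS libraries, and Tgfb3 on 6 to 13 in PTH libraries and 2 to 6 in PBS libraries, so counting error alone is large for both.

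Summed over the 3 ligands, PTH livers had 7.35 ± 1.34 FPKM (SD, n = 4) and PBS livers 4.0 ± 0.186 FPKM (SD, n = 3). Tgfb1 made up 74.1% to 87.8% of that sum in PTH libraries and 85.5% to 87.5% in PBS libraries. In bulk liver, a change in the number of cells that make a transcript and a change in the RNA per cell cannot be told apart.

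Tgfbr1, the type I receptor kinase, lies on chromosome 4 from 47353222 to 47414931 (plus strand). Its values were 12.6, 22.3, 15.9 and 16.7 FPKM in PTH 1 to 4, against 6.37, 6.22 and 6.54 FPKM in PBS 1 to 3. The PBS libraries were nearly alike, and the lowest PTH library, PTH 1, stood well above them. Tgfbr1 rose with a log2 change of 1.31 (SE 0.27, 95% interval 0.72 to 1.90, limma adjusted p = 0.00905, exact permutation p = 0.0571). It stayed past the threshold with any of the 7 libraries left out.

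Tgfbr2, the type II receptor that binds ligand first, is on chromosome 9 from 116084293 to 116175360 (minus strand). It had 11.8, 10.4, 12.4 and 11.2 FPKM in PTH 1 to 4, against 5.91, 2.64 and 5.84 FPKM in PBS 1 to 3. PTH libraries were close together, and PBS 2 was low beside the other PBS libraries. Tgfbr2 rose by a log2 change of 1.25 (SE 0.31, 95% interval 0.57 to 1.93, limma adjusted p = 0.0179, exact permutation p = 0.0571). Without PBS 2 the change was 0.91 and missed the threshold (limma adjusted p = 0.063).

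Tgfbr3, the betaglycan gene on chromosome 5 from 107106570 to 107289629 (minus strand), had 3.17, 4.16, 2.69 and 4.13 FPKM in PTH 1 to 4, against 2.93, 2.58 and 1.83 FPKM in PBS 1 to 3. PTH 3 lay below PBS 1, so the groups overlapped. The log2 change of 0.45 (SE 0.31, 95% interval -0.23 to 1.14) did not pass (limma adjusted p = 0.290, exact permutation p = 0.114). By scaled counts, the same gene had 87.6, 120, 85.9 and 110.0 in PTH 1 to 4, against 59.6, 42.1 and 60.9 in PBS 1 to 3. On that scale the groups did not overlap and Tgfbr3 rose (log2 change 0.84, SE 0.29, limma adjusted p = 0.0362), against 31.3% of 11932 genes that rose by scaled counts.

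**Figure D1:**
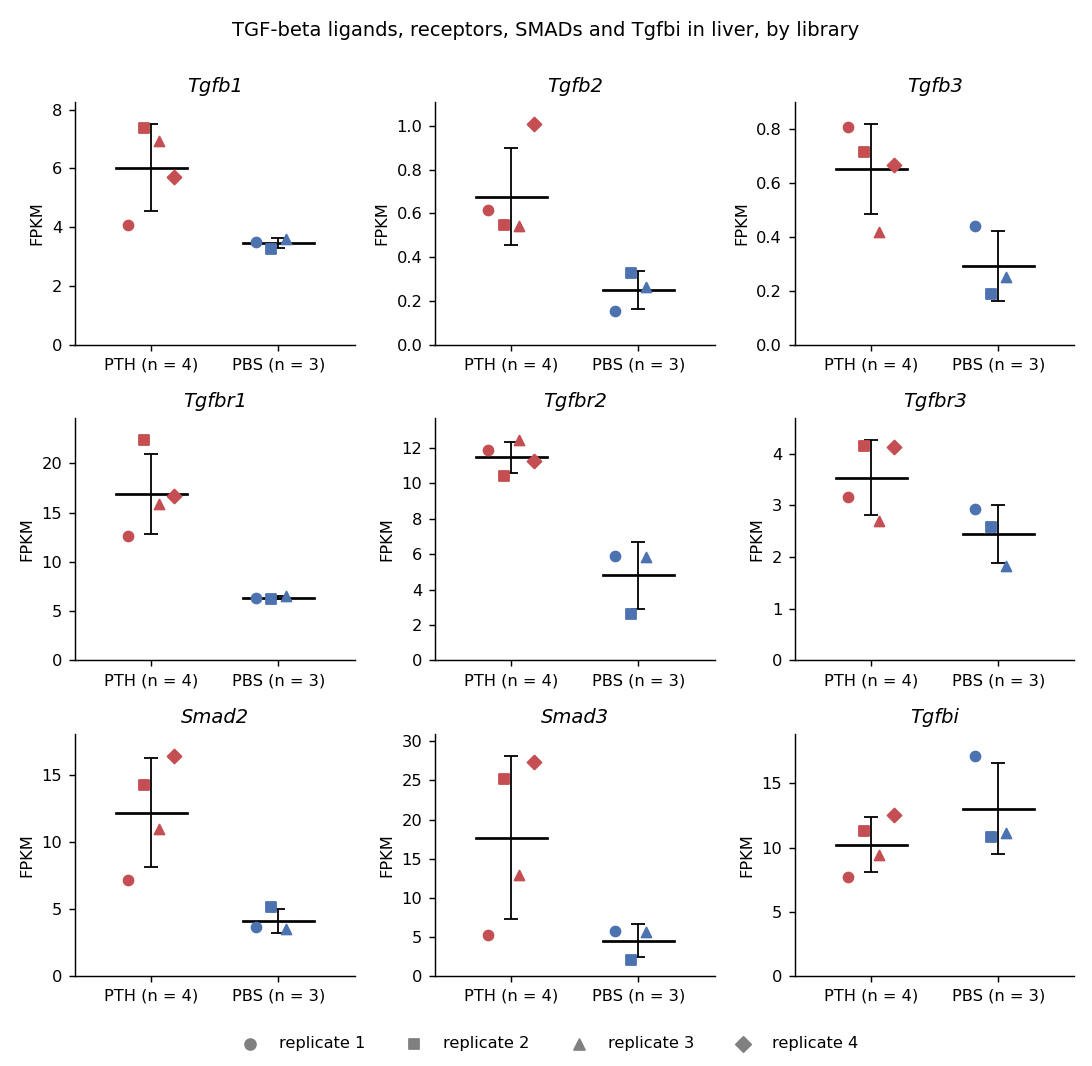
FPKM (vertical axis, from 0) of each gene in every library, with PTH left of PBS; points are libraries, shaped by replicate number, and bars are the mean and SD over 4 PTH and 3 PBS libraries. The groups are apart for Tgfb1, Tgfb2, Tgfbr1, Tgfbr2 and Smad2, and they overlap for Tgfb3, Tgfbr3, Smad3 and Tgfbi.

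Smad2, on chromosome 18 from 76241580 to 76310963 (plus strand), encodes a receptor-activated SMAD. It had 7.14, 14.2, 10.95 and 16.4 FPKM in PTH 1 to 4, against 3.69, 5.16 and 3.56 FPKM in PBS 1 to 3. All 4 PTH libraries were above the PBS range, and they differed among themselves more than the PBS libraries did. PBS 2 was the highest PBS library by FPKM but the lowest by scaled counts, with 26.9 against 43.7 and 33.9 in PBS 1 and 3. Smad2 rose with a log2 change of 1.41 (SE 0.32, 95% interval 0.70 to 2.12, limma adjusted p = 0.0137, exact permutation p = 0.0571), and it stayed past the threshold with any library left out. It rested on 66 to 133 estimated reads in PTH libraries and 15 to 33 in PBS libraries, so its PBS values carry a counting error like that of Tgfb1.

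Smad3, its close relative that binds DNA directly, is on chromosome 9 from 63646767 to 63757994 (minus strand). Its values were 5.29, 25.1, 12.9 and 27.4 FPKM in PTH 1 to 4, against 5.84, 2.13 and 5.69 FPKM in PBS 1 to 3. PTH 1 lay inside the PBS range, while the other PTH libraries were above it. Smad3 rose with the largest point estimate of the 9 genes and the widest interval, a log2 change of 1.71 (SE 0.53, 95% interval 0.55 to 2.87, limma adjusted p = 0.0368, exact permutation p = 0.171). This call is fragile: leaving out a library kept it only without PTH 1, and the other 6 ended it, with changes from 1.29 without PBS 2 to 2.18 without PTH 1. By scaled counts Smad3 had 146, 519, 293 and 493 in PTH 1 to 4, against 87.4, 58.9 and 85.8 in PBS 1 to 3, so on that scale PTH 1 was above the PBS libraries too. There the log2 change was 2.02 (SE 0.39, limma adjusted p = 0.00349).

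Tgfbi, on chromosome 13 from 56609523 to 56639562 (plus strand), encodes a secreted matrix protein that TGF-beta induces in many cells. It had 7.70, 11.3, 9.39 and 12.5 FPKM in PTH 1 to 4, against 17.1, 10.8 and 11.1 FPKM in PBS 1 to 3. The groups overlapped, PBS 1 was the highest library and PTH 1 the lowest. Its log2 change of -0.33 (SE 0.29, 95% interval -0.95 to 0.30) did not pass (limma adjusted p = 0.406, exact permutation p = 0.343), and it was the single gene of the 9 with a change below 0. With each library set to the same median the change was -0.90 (limma adjusted p = 0.0657).

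Counted over the 9 genes, every PTH library was above every PBS library for 5, against 32.9% of all tested genes, and below for 0, against 3.2%. The median change of the 9 genes was 0.69, against 0.55 for all tested genes. With every library at the same median, the tested genes as a whole had a median change of -0.024, and the changes were 0.12 for Tgfb1, 0.068 for Tgfb2, -0.032 for Tgfb3, 0.74 for Tgfbr1, 0.67 for Tgfbr2, -0.12 for Tgfbr3, 0.83 for Smad2 and 1.14 for Smad3. The signs of Tgfb3 and Tgfbr3 turned there, and the receptors and SMADs that rose as deposited kept a positive change without passing the test (limma adjusted p = 0.0954 for Tgfbr1, 0.192 for Tgfbr2, 0.151 for Smad2 and 0.231 for Smad3).

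**Figure D2:**
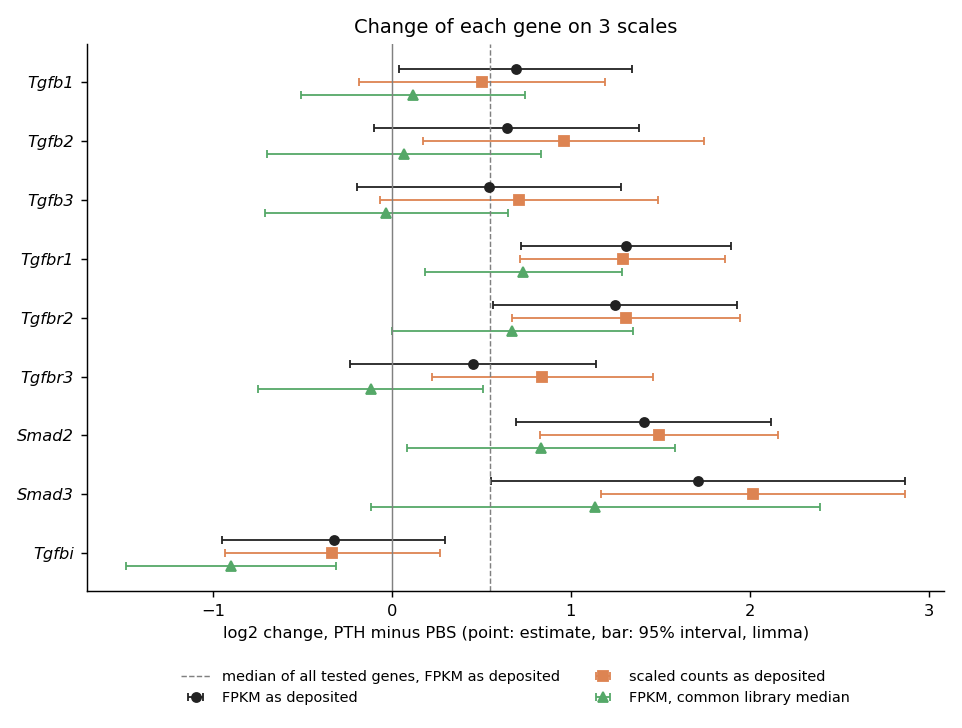
Change of each gene as log2, PTH minus PBS (horizontal axis), by limma with its 95% interval, for FPKM as deposited, scaled counts as deposited and FPKM with every library set to the same median; the dashed line is the median of all tested genes, 0.55. Tgfbr1, Tgfbr2, Smad2 and Smad3 lie right of the dashed line as deposited, and on the common median scale their estimates run from 0.67 to 1.14.

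By mean FPKM, Smad3 had the highest level of the 9 genes in PTH livers and Tgfbi in PBS livers, though Smad3 overlapped with the next gene. In PTH livers the means ran from Smad3 with 17.7 ± 10.4 FPKM and Tgfbr1 with 16.9 ± 4.06 FPKM, through Smad2 with 12.2 ± 4.03, Tgfbr2 with 11.5 ± 0.874 and Tgfbi with 10.2 ± 2.12 FPKM, to Tgfb1 with 6.02 ± 1.47, Tgfbr3 with 3.54 ± 0.727, Tgfb2 with 0.677 ± 0.222 and Tgfb3 with 0.651 ± 0.166 FPKM (SD, n = 4). In PBS livers Tgfbi came first with 13.0 ± 3.55 FPKM, followed by Tgfbr1 with 6.38 ± 0.158, Tgfbr2 with 4.80 ± 1.87, Smad3 with 4.55 ± 2.10, Smad2 with 4.14 ± 0.893, Tgfb1 with 3.46 ± 0.170, Tgfbr3 with 2.45 ± 0.558, Tgfb3 with 0.292 ± 0.131 and Tgfb2 with 0.249 ± 0.0878 FPKM (SD, n = 3). Neighbours whose library ranges did not touch were Tgfbi above Tgfb1 and Tgfbr3 above Tgfb2 in PTH livers, and Tgfbi above Tgfbr1, Tgfbr1 above Tgfbr2, Tgfb1 above Tgfbr3 and Tgfbr3 above Tgfb3 in PBS livers. The other neighbours overlapped. FPKM per scaled count varied between libraries for some of these genes, by 2.27-fold for Smad2, so this order may depend on the transcript lengths used. By mean FPKM over all libraries Tgfbr1 stood at the 72.8 percentile of tested genes, Smad3 at 72.1, Tgfbi at 70.5, Tgfb1 at 44.1, Tgfbr3 at 31.8, Tgfb3 at 1.74 and Tgfb2 at 1.70.

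FPKM and scaled counts gave different values for some of these genes. FPKM per 100 scaled counts should be the same in every library if a gene's length was taken as constant, and it nearly was for Tgfb2, Tgfb3 and Tgfbi, where the highest library was 1.003-fold, 1.004-fold and 1.005-fold the lowest. It varied 2.27-fold for Smad2, 2.03-fold for Tgfbr3, 1.85-fold for Smad3 and 1.66-fold for Tgfb1, but only 1.11-fold for Tgfbr1 and 1.02-fold for Tgfbr2. Smad2 has 7 coding transcripts in GENCODE M21, Smad3 and Tgfbr1 have 4, Tgfbr3 has 2 and Tgfb1 has 1. Of 9721 tested genes with at least 5 scaled counts in every library, 59.9% varied over 1.1-fold. Whether this variation bears on the differences between the groups was not tested. By scaled counts 5 of the 9 genes rose, the same 4 as by FPKM and Tgfbr3, and 0 fell (0 also at an unadjusted p under 0.05), against 31.3% and 2.61% of all genes tested on that scale, with limma adjusted p of 0.00362 for Tgfbr1, 0.00548 for Tgfbr2 and 0.00364 for Smad2. Every PTH library was above every PBS library in scaled counts for 7 of the 9 genes, all but Tgfb3 and Tgfbi, and below for 0, against 37.6% and 2.85% of all genes. The scaled-count change of Tgfb2 was 0.96 and came near the threshold (limma adjusted p = 0.055), and that of Tgfb1 was 0.50 (limma adjusted p = 0.234). With scaled counts set to a common library median, 0 of the 9 genes were higher by limma (4 at an unadjusted p under 0.05) and Tgfbi was lower (-0.94, limma adjusted p = 0.0433), against 4.34% higher and 6.87% lower of all genes.

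**Figure D3:**
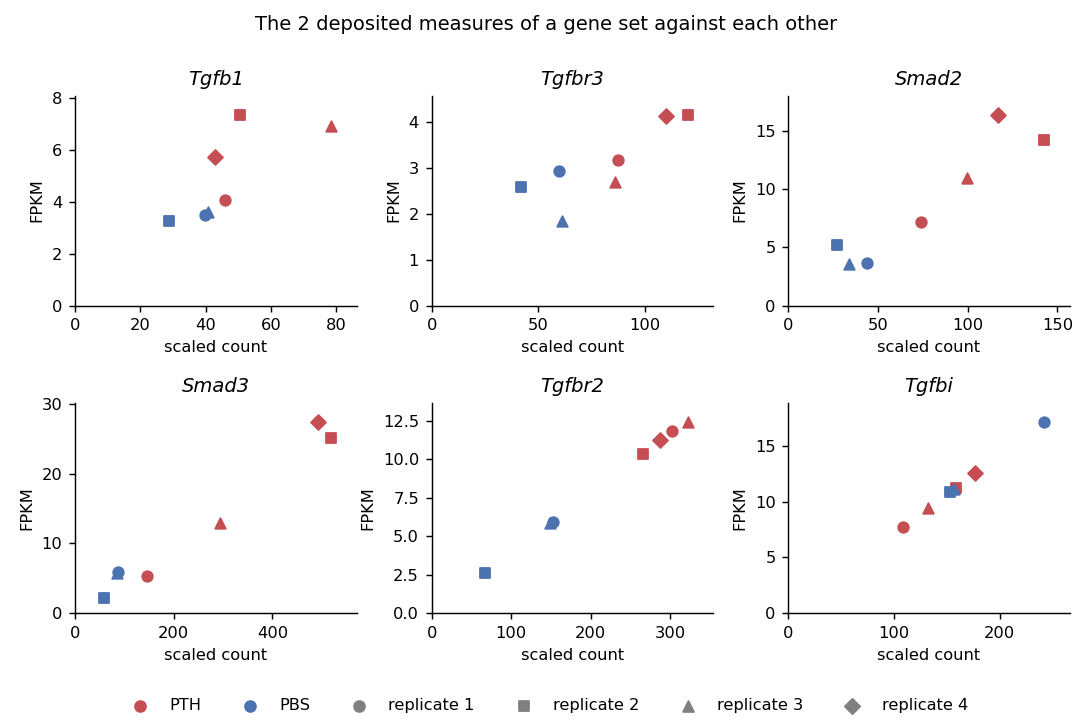
FPKM (vertical axis) against scaled counts (horizontal axis) for Tgfb1, Tgfbr3, Smad2, Smad3, Tgfbr2 and Tgfbi; points are libraries, colored by group and shaped by replicate number. Points of Tgfbr2 and Tgfbi lie close to a line through 0, and those of Smad2, Tgfbr3, Smad3 and Tgfb1 scatter, with 2.27-fold between the highest and lowest ratio for Smad2.

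A ratio of 2 genes within a library does not move with the scaling of that library, apart from the constant 0.5 added to each FPKM. Over 6 such ratios of FPKM, Tgfbi over Tgfb1 had groups that did not overlap. The log2 ratio was 0.84, 0.58, 0.41 and 1.07 in PTH 1 to 4, against 2.14, 1.59 and 1.502 in PBS 1 to 3. Every PTH library was lower than every PBS library, with a difference of -1.02 (exact two-sided permutation p = 0.0571, the smallest possible here, and 0.343 after Benjamini-Hochberg adjustment over the 6). It fails the correction, and it does not say which of the pair moved. By scaled counts the groups overlapped for this pair. There PTH 4 had 177 for Tgfbi and 43.0 for Tgfb1, a higher ratio than the 157 and 40.6 of PBS 3. FPKM per scaled count of Tgfb1 varied between libraries, which a ratio within a library does not remove. The type I over type II receptor ratio was 0.51 ± 0.42 in PTH libraries and 0.45 ± 0.56 in PBS libraries (SD, n = 4 and 3, exact permutation p = 0.914). Smad3 over Smad2 was 0.34 ± 0.55 in PTH libraries and 0.034 ± 0.99 in PBS libraries (exact permutation p = 0.571). Both differences were smaller than the spread between libraries. Betaglycan over the type II receptor, Tgfbr3 over Tgfbr2, was -1.58 ± 0.37 in PTH libraries and -0.79 ± 0.71 in PBS libraries, a difference of -0.79 whose groups overlapped (exact permutation p = 0.171). Tgfb2 and Tgfb3 over Tgfb1 differed by -0.051 and -0.15 (exact permutation p = 0.914 and 0.8).

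**Figure D4:**
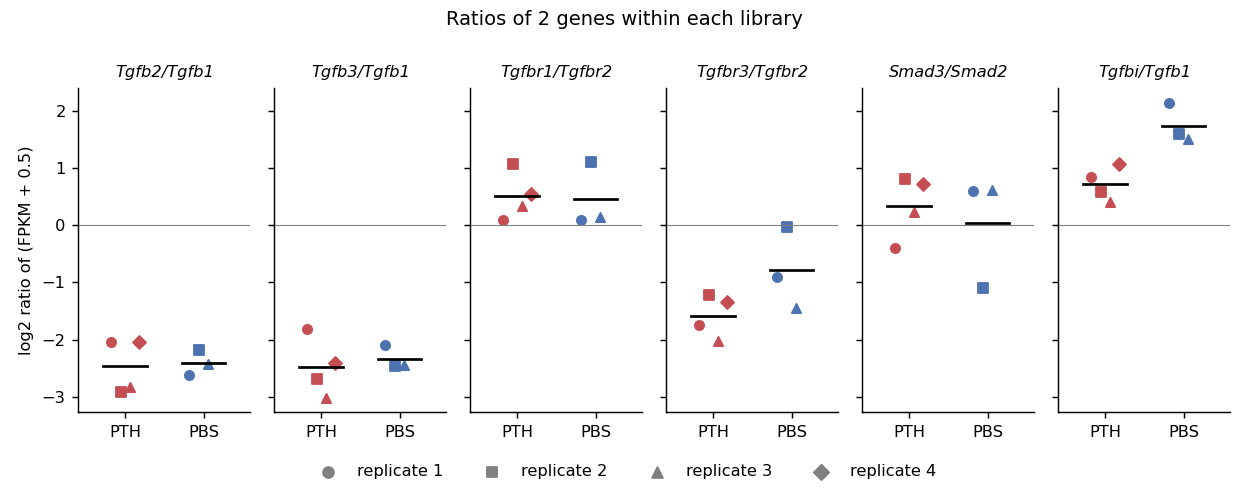
Log2 ratio of FPKM + 0.5 for 6 pairs of genes (vertical axis) in each library, PTH left of PBS, with points shaped by replicate number and a bar at the mean of 4 PTH and 3 PBS libraries. Tgfbi over Tgfb1 is the pair without overlap, with PTH libraries from 0.41 to 1.07 and PBS libraries from 1.502 to 2.14.

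The wider pathway was read from 5 lists of 87 genes, of which 76 were tested. PTH livers had 14 of these higher and 3 lower, against 22.8% and 2.37% of all tested genes, and the lists' median change was 0.47, against 0.55 over all tested genes. With every library at the same median 2 of the 76 were higher and 8 lower, against 3.25% and 5.25% of all tested genes. On that scale the calls were 1 higher and 0 lower for the latent complex, 0 and 3 for the co-receptors, 0 and 0 for the SMAD partners, 1 and 5 for the responsive genes, and 0 and 0 for the activin and BMP receptors.

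Among 15 tested genes of the latent complex and its activation, 2 rose and 0 fell, against 22.8% and 2.37% of all tested genes. Their median change was 0.71, against 0.55 for all tested genes. Itgb1, the beta 1 integrin subunit, averaged 75.2 ± 10.5 FPKM in PTH livers and 28.1 ± 5.47 FPKM in PBS livers (SD, n = 4 and 3, log2 change 1.41, SE 0.25, limma adjusted p = 0.00619). Lrrc32, which encodes GARP, a cell-surface anchor for latent TGF-beta, averaged 5.63 ± 1.56 FPKM in PTH livers and 2.60 ± 0.337 FPKM in PBS livers (log2 change 0.95, SE 0.31, limma adjusted p = 0.0432). Thbs1, encoding thrombospondin 1, an activator of latent ligand, had a change of 1.18 that did not pass (limma adjusted p = 0.0564). Itgb1 still passed with every library at the same median, with a change of 0.84 (limma adjusted p = 0.0461). For Lrrc32 it was 0.38 (limma adjusted p = 0.424).

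Of the 7 tested co-receptors and pseudoreceptors, 1 rose and 0 fell, against 22.8% and 2.37% of all tested genes. Their median change was -0.43, against 0.55 for all tested genes. The gene that rose was Dab2, an adaptor that links the receptors to SMADs, with 11.9 ± 2.46 FPKM in PTH livers and 4.66 ± 2.14 FPKM in PBS livers (log2 change 1.32, SE 0.32, limma adjusted p = 0.0164). Dab2 stands on 2 lines of the deposited table, and only the line with the higher mean FPKM was read. At a common median 0 of the 7 were higher and 3 lower, against 3.25% and 5.25% of all tested genes. There the change of Dab2 was 0.75 and did not pass (limma adjusted p = 0.185). Eng, the endothelial co-receptor endoglin, had a change of 0.63 and Lrg1, a secreted modulator of endothelial TGF-beta signalling, one of -1.47, neither of which passed (limma adjusted p = 0.134 and 0.0524).

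SMAD partners and regulators had 5 of 16 tested genes higher and 0 lower, against 22.8% and 2.37% of all tested genes. Their median change was 0.87, against 0.55 for all tested genes. Foxh1, a nuclear partner of SMAD2, was listed at 0 in every library. Smad7, the inhibitory SMAD that TGF-beta itself induces, had 10.6, 13.3, 5.07 and 8.97 FPKM in PTH 1 to 4, against 2.58, 1.27 and 2.69 FPKM in PBS 1 to 3. The groups were well apart, and the log2 change was 1.87 (SE 0.37, limma adjusted p = 0.00837). Smurf1, a ubiquitin ligase that acts with SMAD7 on the receptors, averaged 7.05 ± 1.17 FPKM in PTH livers and 2.60 ± 0.847 FPKM in PBS livers (log2 change 1.31, SE 0.30, limma adjusted p = 0.0137). Ski, a co-repressor of SMAD targets, averaged 11.1 ± 2.22 FPKM in PTH livers and 5.36 ± 1.29 FPKM in PBS livers (limma adjusted p = 0.028). Zfyve9, which encodes the SMAD anchor SARA, and Ppm1a, a phosphatase of SMAD2 and SMAD3, rose by 0.88 and 0.83 (limma adjusted p = 0.0356 and 0.0406). Ppm1a was named after its values were seen. Smad4, the shared partner, had a change of 1.03 that did not pass (limma adjusted p = 0.0553). With every library at the same median 0 of these genes passed by limma, against 3.25% higher and 5.25% lower of all tested genes. The change of Smad7 was 1.30 there (limma adjusted p = 0.0507).

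Of 32 tested genes known to respond to TGF-beta, 3 were higher and 3 lower as deposited (median change 0.16), against 22.8% and 2.37% of all tested genes. This even split depends on the scaling, since 1 was higher and 5 were lower at a common median, against 3.25% and 5.25% of all tested genes. Tagln, the smooth muscle protein transgelin, averaged 6.45 ± 1.33 FPKM in PTH livers and 1.24 ± 0.566 FPKM in PBS livers (log2 change 2.02, SE 0.33, limma adjusted p = 0.0043), and it passed with every library at the same median too (1.45, adjusted p = 0.0224). Timp3, an inhibitor of metalloproteinases, averaged 11.2 ± 3.39 FPKM in PTH livers and 4.23 ± 0.561 FPKM in PBS livers (log2 change 1.27, limma adjusted p = 0.0151). Fn1, the matrix glycoprotein fibronectin that hepatocytes also secrete into plasma, fell, with 200.6 ± 81.0 FPKM in PTH livers and 462 ± 48.3 FPKM in PBS livers (log2 change -1.29, SE 0.34, limma adjusted p = 0.0208). Cdkn1a, the cell cycle inhibitor p21, averaged 14.5 ± 4.38 FPKM in PTH livers and 30.3 ± 6.08 FPKM in PBS livers (log2 change -1.07, limma adjusted p = 0.0267). Junb, a subunit of AP-1, fell by 1.34 and Tnc, the matrix protein tenascin C, rose by 1.09 (limma adjusted p = 0.0379 and 0.04), both named after their values were seen. PBS 2 held 100.6 FPKM of Junb, against 24.1 and 31.6 FPKM in PBS 1 and 3. The fibrillar collagen genes Col1a1, Col1a2 and Col3a1 had changes of 0.22, 0.20 and -0.16, and Acta2, the actin of myofibroblasts, had 0.81, none of which passed (limma adjusted p = 0.633, 0.659, 0.711 and 0.07). Ccn2, a much used readout of SMAD3, had a change of 0.52 that did not pass (limma adjusted p = 0.476).

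Of 6 tested activin and BMP receptors, which belong to the same receptor family, 3 rose and 0 fell, against 22.8% and 2.37% of all tested genes. Their median change was 0.93, against 0.55 for all tested genes. Bmpr1a, a type I receptor for BMPs, averaged 17.0 ± 4.38 FPKM in PTH livers and 4.70 ± 1.98 FPKM in PBS livers (log2 change 1.79, limma adjusted p = 0.00751). The type II receptors Acvr2a and Bmpr2 rose by 1.0 and 0.87 (limma adjusted p = 0.0309 and 0.0316). All 3 calls ended at a common median, where the changes were 1.22 for Bmpr1a, 0.43 for Acvr2a and 0.29 for Bmpr2 (limma adjusted p = 0.0622, 0.308 and 0.462). Itgb1, Lrrc32, Dab2, Zfyve9, Tagln, Timp3, Fn1 and Acvr2a share their locus in the table with another gene, as 26% of its genes do, so their reads could be split. Itgb1 and Tagln passed in 17 of 17 alternative settings and Smad7 in 17 of 18. The other calls named here were lost in some settings, most often those of Lrrc32, which passed in 6 of 17, and Ppm1a, which passed in 7 of 18.

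**Figure D5:**
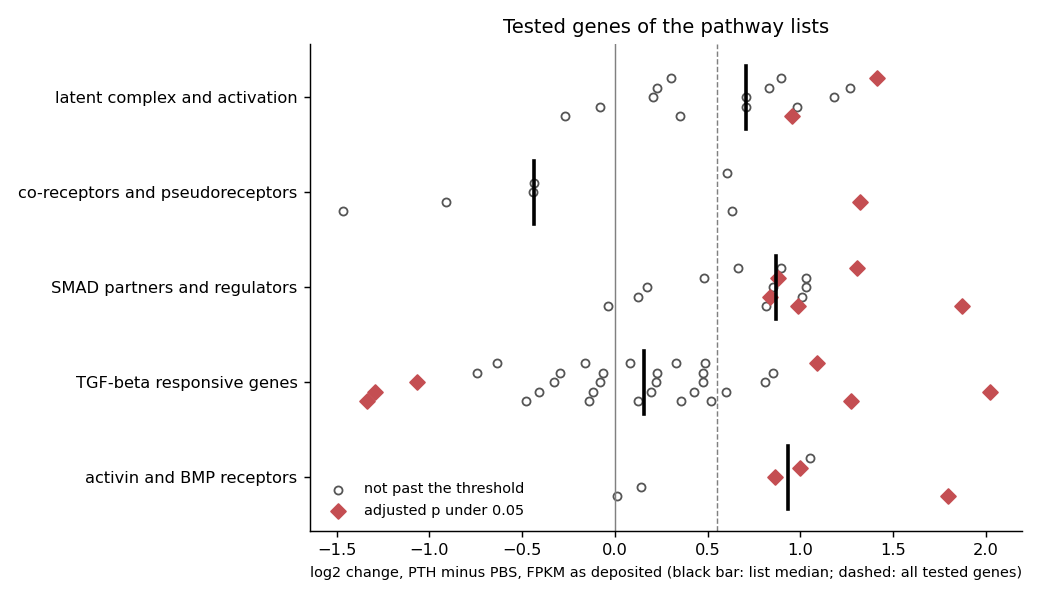
Log2 change, PTH minus PBS (horizontal axis), of every tested gene in the 5 pathway lists, 1 row a list, with filled diamonds for an adjusted p under 0.05, open circles for the rest and a black bar at the median of each list; the dashed line is the median of all tested genes, 0.55. SMAD partners and activin and BMP receptors have medians of 0.87 and 0.93, and the responsive genes, with a median of 0.16, spread to both sides.

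Cell type markers were read beside these changes, and their part in them was not tested. The 15 endothelial markers summed to 143 to 195 FPKM in PTH libraries and 106 to 137 FPKM in PBS libraries, without overlap, and 3 of the 15 rose, against 22.8% of all tested genes. At a common median 0 of the 15 were higher and 0 lower. Kupffer cell and macrophage markers summed to 160 to 258 FPKM in PTH libraries and 267 to 380 FPKM in PBS libraries, also without overlap. Of the 15 markers 9 fell while 1 rose, against 2.37% and 22.8% of all tested genes. At a common median 11 were lower and 0 higher, against 5.25% and 3.25% of all tested genes. The same shares stand beside the common median counts of the other marker lists. Stellate cell markers, from the cells that respond most to TGF-beta in fibrosis, summed to 106 to 194 FPKM in PTH libraries and 118 to 133 FPKM in PBS libraries, and 2 of 14 tested rose, against the same 22.8%. At a common median 0 of the 14 were higher and 2 lower. Dcn and Ecm1 had the highest values of this list in every library and so weigh most in the sum. As deposited, every PTH library was above every PBS library for 5 of the 14 and below for 2, against 32.9% and 3.2% of all tested genes. Gfap of that list was listed at 0 in all libraries but PBS 1. Hepatocyte markers summed to 24215 to 40596 FPKM in PTH libraries and 21444 to 41076 FPKM in PBS libraries, with 2 of 11 lower, against the same 2.37%. At a common median 3 of the 11 were lower and 0 higher. Neutrophil markers summed to 4.11 to 36.9 FPKM in PTH libraries and 40.6 to 796 FPKM in PBS libraries, and Ly6g was listed at 0. Of 7 tested, 4 fell, against the same 2.37%, and 4 were lower and 0 higher at a common median. Platelet markers, of cells rich in TGF-beta 1, summed to 1.06 to 8.05 FPKM in PTH libraries and 4.56 to 11.5 FPKM in PBS libraries, and Gp6 was listed at 0. Cholangiocyte markers summed to 43.9 to 83.4 FPKM in PTH libraries and 66.0 to 96.5 FPKM in PBS libraries. Most of this sum was Spp1, which is also among the responsive genes. It had 26.8 to 66.2 FPKM in PTH libraries and 55.1 to 80.7 FPKM in PBS libraries. Of 7 tested, 5 had a change above 0 (median 0.67, against 0.55 for all tested genes) and 1 rose, against 22.8%. At a common median 0 were higher and 1 lower. Lymphocyte markers summed to at most 2.56 FPKM in PTH libraries and 2.41 FPKM in PBS libraries. Genes of handling stress summed to 103 to 139 FPKM in PTH libraries and 329 to 1189 FPKM in PBS libraries. Of these 10 genes 6 fell, against the same 2.37%, and 6 were lower and 0 higher at a common median. PBS 2 had the highest handling stress sum, but the genes of that list did not all go the same way. Among PBS libraries PBS 2 was the lowest for Hspa1a, with 12.4 FPKM against 31.5 and 22.5 in PBS 1 and 3. The same held for Hspa1b, with 55.9 FPKM against 77.6 and 103, while PBS 2 was the highest for the rest. By FPKM PBS 2 was the lowest PBS library for Tgfb1, Tgfb3, Tgfbr1, Tgfbr2, Smad3 and Tgfbi and the highest for Tgfb2 and Smad2. By scaled counts it was the lowest PBS library for Smad2. Without PBS 2, 2 of the 9 genes rose, Tgfbr1 and Smad2, against 1291 of 11689 tested genes. The call of Smad3 was also lost without any other library except PTH 1. Whether handling stress bears on these calls was not tested.

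The genes whose pattern over the 7 libraries was most like that of each gene were sought among 7208 tested genes by Pearson correlation of log2(FPKM + 0.5). The groups, the depth and the library medians are shared by all genes, so these values describe the libraries only. Gtf2e1 (r = 0.999) and Slc40a1 (0.996) were nearest to Tgfbr1, and Rps24 (0.993) and Mettl22 (0.992) to Tgfbr2. Npepps (0.994) and Rasgrf2 (0.986) were nearest to Smad2, Dnajc5 (0.996) and Iqgap1 (0.994) to Smad3, and Marveld2 (0.991) and Zfp422 (0.977) to Tgfbr3. For the ligands they were Fiz1 (0.994) and Heca (0.988) with Tgfb1, Dennd1b (0.987) and Parg (0.982) with Tgfb2, and Nono (0.983) and Rbm8a (0.982) with Tgfb3. Tgfbi was nearest to Clca1 (0.949) and Il6ra (0.946).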

How the data were processed

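Per the labels, RNA libraries from liver were sequenced by standard Illumina protocols. Bowtie 0.12.2 and mm8 are named in the submitters' processing notes, and no source used here names the quantifier. The loci in the deposited table match GRCm38: 95.0% of 21839 genes span their GENCODE M21 gene within 5000 bases. The authors deposited FPKM and a count column whose values were already scaled, a signal that is a whole multiple, within 0.05, of a step of its own in each library for 92.3% to 94.1% of values. Hence no count test was run on it. The step gave the estimated reads.

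Genes that reached 0.5 FPKM in 3 or more libraries were tested on log2(FPKM + 0.5) with limma 3.58.1 in R 4.3.3 (trend and robust, two-sided, Benjamini-Hochberg adjusted p under 0.05), without rescaling, over 4 PTH and 3 PBS libraries. The pseudocount understates changes of low genes. Scaled counts used log2(value + 5) and a minimum of 5 in 3 libraries. Exact two-sided permutation tests over the 35 splits used SciPy 1.17.1. The scripts were tested on simulated data. There 7 of 93 genes given a log2 change of 1 passed, and 70 of 107 given a change of 2. Of the genes given no change, 2 passed. Most changes of 1 or less would thus be missed in that setting, so a gene that did not pass cannot be called unchanged. Fewer genes were changed in the simulation than passed in the deposited values, so the share found may differ here.

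The genes and lists were chosen with earlier results of these data known. Pathway genes named are up to 4 a list with the smallest p among those past the threshold; a few others, given as not passing or as named afterwards, were chosen after their values were seen. Library correlations of log2 values were 0.875 to 0.945 within PTH, 0.891 to 0.924 within PBS and 0.799 to 0.889 between the groups. Library medians of log2 values were 2.64 to 2.96 in PTH and 2.09 to 2.41 in PBS libraries. Alternatives covered library scaling, filters, pseudocounts, scaled counts, shared loci, a replicate block and leaving out each library.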

Additional observations from a re-analysis of the deposited data

Results flagged for a closer look

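Tgfb2 had 1.01 FPKM in PTH 4, a sample far from the other PTH libraries, which held 0.543 to 0.614 FPKM, against 0.155 to 0.329 FPKM in PBS libraries. The gap to the nearest PTH library was 0.846 of the group's range, above Dixon's 95% critical value for 4 libraries. The value rests on 15 estimated reads. Of 32 genes and ratios checked in this way it was the only one, and chance flags about 5% of groups.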

How the results depend on the processing

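As deposited, 2709 genes were higher and 281 lower in PTH livers. Leaving out 1 library gave 998 to 2734 higher and 122 to 437 lower, of the 9 genes 2 to 4 higher, and of the pathway genes 6 to 18 higher and 0 to 4 lower. Scaling changed the counts most. A common median gave 385 genes higher and 623 lower, 0 of the 9 genes higher, and 2 pathway genes higher and 8 lower. Quantile normalization gave 467 and 510, 0 of the 9, and 3 and 5 pathway genes. A common median with scaled counts, chosen after seeing the data, gave 518 and 820, 0 of the 9 higher with 1 lower (Tgfbi, -0.94), and 3 and 8 pathway genes. At an unadjusted p under 0.05, limma had 2, 2 and 4 of the 9 genes higher in these settings, without a share of all tested genes to set beside them. Scaled counts as deposited gave 26 pathway genes higher, and leaving out shared loci 7. The latter setting takes genes with a shared locus out of the test. Itgb1, Lrrc32, Dab2, Zfyve9, Tagln, Timp3 and Acvr2a, all higher as deposited, were thus not tested in it. Reversed changes were -0.10 for Tgfb1 (common median with scaled counts), -0.032 for Tgfb3 and -0.12 for Tgfbr3 (common median), and -0.053 for Tgfbr3 (quantile). Ratio differences near 0 also reversed: without 1 library Tgfb2/Tgfb1 ran from -0.19 to 0.10, Tgfb3/Tgfb1 from -0.38 to 0.027, Tgfbr1/Tgfbr2 from -0.12 to 0.39 and Smad3/Smad2 from -0.27 to 0.59. With a pseudocount of 0.1 Tgfb2/Tgfb1 was 0.40 and Tgfb3/Tgfb1 0.21, and by scaled counts they were 0.46 and 0.21, with Tgfbr1/Tgfbr2 at -0.019. Tgfbi/Tgfb1 stayed below 0 in all 10 alternatives (-1.14 to -0.82), but by scaled counts its groups overlapped. Apart from genes left out of a test, the cause of these changes was not tested. Same-numbered libraries had correlations of deviations of -0.031, -0.156 and 0.010, inside the range of differently numbered ones, -0.198 to 0.215. These values show no sign of pairing by number, but so few libraries cannot exclude it. The replicate block over libraries 1 to 3 gave 1583 genes higher and 181 lower, 3 of the 9 genes higher, without Smad3 (limma adjusted p = 0.117), and 4 pathway genes higher and 1 lower. Tgfb2 was not tested at a minimum of 1 FPKM, and Tgfb3 not in 6 of 18 alternatives. Estimated reads in PBS libraries were 2 to 6 for Tgfb2 and Tgfb3, 17 to 30 for Tgfb1 and 15 to 33 for Smad2, which limits their precision.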
